A study of Mus musculus with 30 samples.

Results

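Translation initiation factor genes were followed in microglia of the mouse lumbar spinal cord after nerve injury and under chronic morphine. Members were all genes of the deposited table whose symbol begins with Eif1 to Eif6, with the Eif2ak kinases left out. The rule found 51 of the 24888 rows, used no measured value, and met no symbol that stands on more than 1 row. Tests covered the 50 members with 1 FPKM or more in 2 or more of the 30 libraries, and Eif4e1b was listed at 0 in all 30. FPKM counts sequenced fragments relative to transcript length and to all mapped fragments of the library.

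Microglia are the macrophages that live in brain and spinal cord. The cells came from C57BL/6J mice and were taken from dissociated cord with antibodies to CD11b, an integrin that neutrophils and monocytes carry as well. Injured mice had their sciatic nerve transected (SNT) 1, 2, 4 or 7 days before (days post injury, dpi), constricted (chronic constriction injury, CCI) 2 or 7 days before, or partly spared (spared nerve injury, SNI) 7 days before, with 2 libraries per injury and day. Chronic morphine followed a fixed regimen in 4 libraries and an escalating one in 3, and saline given on each regimen (4 and 3 libraries) was its comparison. The 2 control libraries with no condition in the labels, from mice left without treatment or injury, are called naive, and the 9 libraries of naive and saline mice together served as controls of the injuries. Replicates carry the labels' numbers, by which the controls run through (naive 1 and 2, fixed saline 3 to 6, escalating saline 7 to 9). The labels give no sex, age, dose or number of animals per library, so p-values measure the spread between these libraries.

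Initiation of translation begins when eIF1, eIF1A and the large eIF3 complex prepare the small ribosomal subunit, to which eIF2 brings the initiator tRNA. eIF4F, made of the cap-binding protein eIF4E, the scaffold eIF4G and the helicase eIF4A, recruits the mRNA, and the 4E-binding proteins hold eIF4E away from eIF4G. Stress kinases that phosphorylate eIF2 block its recycling by eIF2B, which lowers protein synthesis overall and favours translation of the Atf4 mRNA. The values here are mRNA levels and do not measure phosphorylation or protein synthesis.

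Microglial marker genes were present in all 30 libraries, with P2ry12 at 562 to 1550 FPKM and Tmem119 at 262 to 1443 FPKM. Neutrophil transcripts were present as well, with S100a8 at 326 to 30884 FPKM. The endothelial marker Cldn5 was at most 0.130 FPKM. Pecam1, from the same marker list, was present, and these values do not tell which cells carried it. Libraries of the fixed-saline group held 3.68 to 8.06 FPKM of Pecam1, and those of fixed morphine held less (2.09 to 2.96 FPKM). The highest mean log2 level in any library was 5.90 for monocyte markers and 4.03 for astrocyte markers. It was 3.61 for oligodendrocyte markers and 3.51 for markers of T and NK cells. The monocyte level spanned 3.55 to 5.90 among the fixed-morphine libraries, and its fixed-saline range was 3.98 to 5.52. Between 8005 and 10427 genes per library had at least 1 FPKM, and read depth is unknown. Libraries did not gather by group: for 7 of 30 the most similar library (Pearson correlation over log2 values of all tested genes) belonged to the same group. SNT 7 dpi replicate 2 was closest to CCI 2 dpi replicate 1 (r = 0.988), as close as fixed-morphine replicates 2 and 3 were to each other (r = 0.988). Both naive libraries were closest to SNI libraries, and fixed-morphine replicate 1 was closest to naive replicate 2 (r = 0.979).

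The results turn on members that were called higher or lower under fixed morphine, and the bases before the start of 5 of them follow. They are shown because Eif4g1 and Eif3b rose and Eif4a2, Eif4ebp2 and Eif3m fell in the same libraries. Each is the stretch of 150 bases that ends just before the RefSeq start in GRCm38.p6, read 5′ to 3′ on the gene's strand, and capitals mark any of 5 motif words searched on either strand. The words were CCGGAAG (bound by ETS factors), CACGTG (the E-box of MYC and USF factors), TATAAA (the TATA box), CCAAT (bound by NF-Y) and the 10-letter NRF1 motif with 1 free position, all but the E-box read on both strands because that one is its own complement.
Eif4g1: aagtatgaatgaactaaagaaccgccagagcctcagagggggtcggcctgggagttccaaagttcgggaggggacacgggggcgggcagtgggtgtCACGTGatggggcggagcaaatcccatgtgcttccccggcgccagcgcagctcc
Eif3b: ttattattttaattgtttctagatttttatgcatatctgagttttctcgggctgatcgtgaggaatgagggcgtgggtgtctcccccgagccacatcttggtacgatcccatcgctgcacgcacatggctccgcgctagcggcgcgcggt
Eif4a2: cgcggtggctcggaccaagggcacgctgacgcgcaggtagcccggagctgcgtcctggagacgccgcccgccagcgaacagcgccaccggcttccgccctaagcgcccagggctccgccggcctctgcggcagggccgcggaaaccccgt
Eif4ebp2: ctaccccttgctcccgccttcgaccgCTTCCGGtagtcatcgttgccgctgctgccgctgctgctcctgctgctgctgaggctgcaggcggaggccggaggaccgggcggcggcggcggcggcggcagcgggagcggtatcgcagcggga
Eif3m: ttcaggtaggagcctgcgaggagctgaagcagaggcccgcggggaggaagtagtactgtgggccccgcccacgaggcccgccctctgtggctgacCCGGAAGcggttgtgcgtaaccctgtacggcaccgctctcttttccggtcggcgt

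These stretches lie at chr16:20672577-20672726 (plus strand) for Eif4g1, chr5:140419155-140419304 (plus) for Eif3b, chr16:23107318-23107467 (plus) for Eif4a2, chr10:61452670-61452819 (minus) for Eif4ebp2 and chr2:105017028-105017177 (minus) for Eif3m. The E-box word of Eif4g1 began 54 bases before the start and the ETS word of Eif3m 55 bases before it. The ETS word of Eif4ebp2 stood on the opposite strand, 124 bases before the start. The stretches of Eif3b and Eif4a2 held none of the 5 words, and their GC content was 52.0% and 76.0%, against 63.3%, 74.0% and 66.7% in Eif4g1, Eif4ebp2 and Eif3m.

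In the GENCODE M21 annotation of GRCm38, the 7 genes called under fixed morphine span 16:20668313-20692884 (Eif4g1), 7:111067750-111083030 (Eif4g2), 5:140419328-140443360 (Eif3b), 11:3202392-3244588 (Eif4enif1), 16:23107444-23114136 (Eif4a2), 10:61428491-61452661 (Eif4ebp2) and 2:104999656-105017080 (Eif3m). The stretch printed for Eif4g1 lies inside its annotated span, and those of Eif4a2 and Eif3m run into theirs, because RefSeq starts these genes further in.

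RefSeq promoters were matched for 39 of the 51 members, with 51 starts. In the 250 bases before the start, the ETS word stood in 23.5% of the members' promoters and 6.91% of all 32851 promoters, the E-box in 21.6% and 6.02%, and the NRF1 word in 17.6% and 3.74%. TATAAA stood in 7.84% and 12.4%, and CCAAT in 23.5% and 33.8%. Eif4e, the cap-binding protein gene, was among the 9 members with the E-box, along with Eif4a1 and Eif5a. A motif word describes these letters and is no measure of binding, and no motif was tested against the direction of change.

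Over all 30 libraries the highest members were Eif1, which guards the choice of start codon, with a median of 221 FPKM (lowest 155, highest 449), and Eif5a, which helps ribosomes past difficult peptide bonds, with a median of 165 FPKM (122 to 368). Both ranges overlap, and the order of these neighbours within each library was not read. Subunits of eIF3 followed, with medians of 101 FPKM for Eif3f (62.5 to 247), 97.2 FPKM for Eif3h (60.8 to 170) and 85.8 FPKM for Eif3k (64.7 to 276). The lowest tested members were Eif5b, the GTPase that joins the ribosomal subunits (median 6.80 FPKM), Eif4enif1, which carries eIF4E into the nucleus and to decaying mRNA (5.96 FPKM), Eif5a2 (1.90 FPKM), Eif4ebp3 (1.43 FPKM) and Eif3j1 (listed at 0 in 28 libraries).

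Paralogs differed in level. Among the eIF4G scaffolds, Eif4g2, whose product supports initiation without eIF4E, had a median of 84.5 FPKM, Eif4g1 17.2 FPKM and Eif4g3 11.8 FPKM. Among the helicases, Eif4a1 had 82.7 FPKM and Eif4a2 34.3 FPKM. Among the repressors of eIF4E, Eif4ebp1 had 41.9 FPKM, Eif4ebp2 11.5 FPKM and Eif4ebp3 1.43 FPKM, and the target Eif4e stood at 20.2 FPKM (6.63 to 39.6). Among the 42 members never under 1 FPKM, the widest spread was that of Eif1a, the start-site factor (1.09 to 20.6 FPKM, 18.9-fold), followed by Eif3b (6.98 to 96.6 FPKM, 13.8-fold) and Eif4g1 (4.57 to 55.7 FPKM, 12.2-fold), and the narrowest spread was that of Eif4e2, a cap-binding homolog (13.4 to 28.1 FPKM, 2.10-fold).

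**Figure D1:**
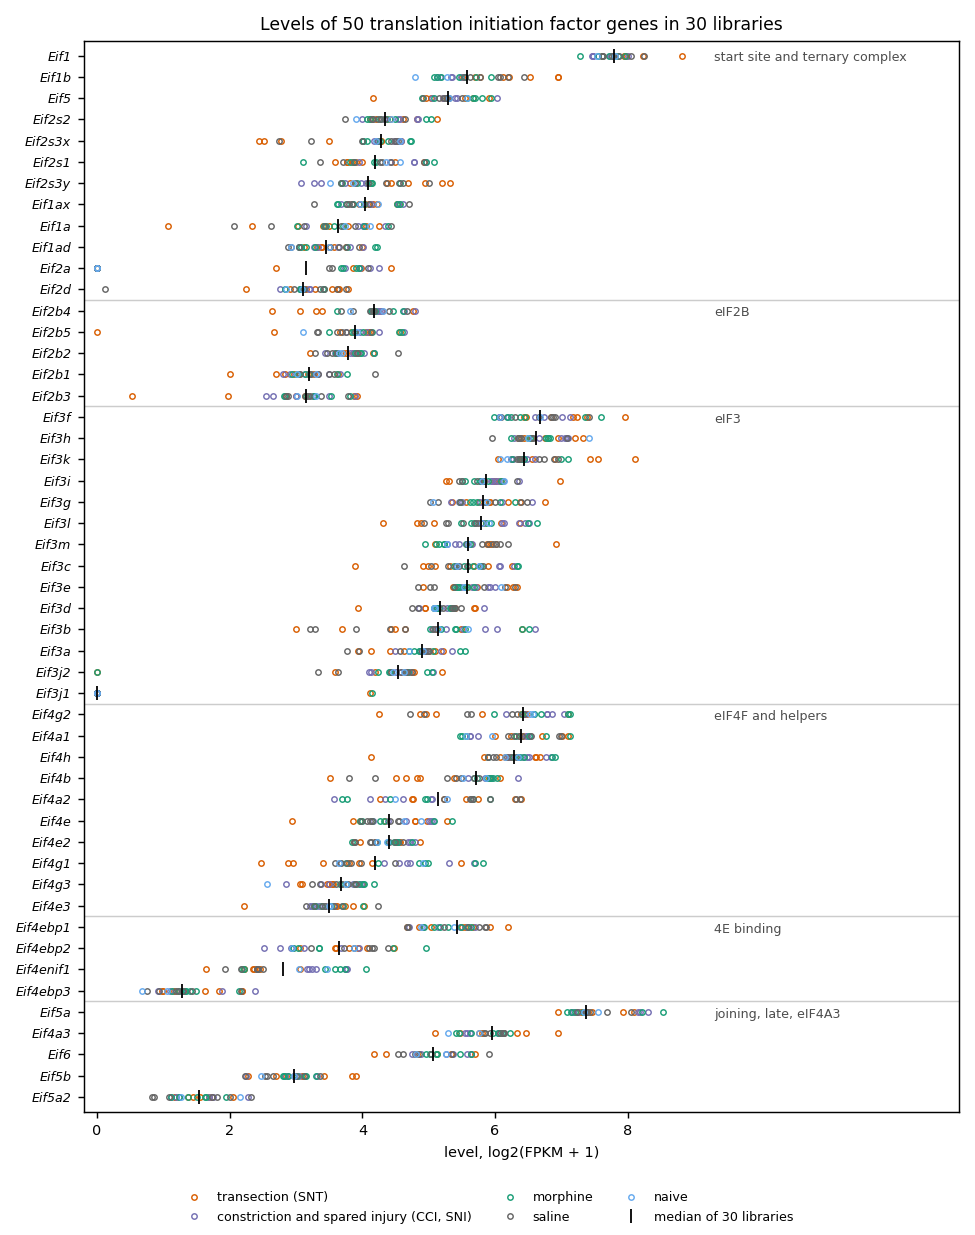
Levels of the 50 tested members on the log2(FPKM + 1) scale (horizontal axis), 1 row per gene within its role, 1 circle per library coloured by kind of treatment, and a black tick for the median of 30 libraries. Eif1 and Eif5a lie to the right of most members, and circles at 0 mark libraries in which Eif2a, Eif2b5, Eif3j1 or Eif3j2 was listed at 0.

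Under fixed-regimen morphine, compared with fixed-regimen saline to ask how the drug acts on these cells, 4 members rose and 3 fell. The scaffold genes Eif4g1 and Eif4g2, the eIF3 scaffold subunit Eif3b and the eIF4E transporter Eif4enif1 were 1.26 to 1.42 higher on the log2 scale. The helicase Eif4a2, the repressor Eif4ebp2 and the eIF3 subunit Eif3m were lower. These 7 are 14% of the 50 members tested, and 18.0% of all 11759 genes were called in the same comparison (13.6% higher and 4.46% lower), so the share among the members was not above that of all genes. In bulk RNA, fewer cells of a type and less RNA per cell cannot be told apart.

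Eif4g1, which bridges the cap and the ribosome, had 28.0, 51.0, 55.7 and 29.8 FPKM in fixed morphine, against 21.5, 14.8, 13.2 and 12.6 FPKM in fixed saline. The groups did not overlap, and replicates 2 and 3 of morphine were the highest. Naive replicate 2 had 29.2 FPKM and naive replicate 1 less. The difference was 1.32 ± 0.29 (SE) in log2(FPKM + 1), with an adjusted p of 0.0107 (limma, Benjamini-Hochberg over all genes). Eif4g2 had 94.97, 139, 137 and 94.9 FPKM in fixed morphine, against 85.5, 75.3, 25.3 and 29.4 FPKM in fixed saline, a difference of 1.27 ± 0.36 (adjusted p = 0.0297). Saline replicates 5 and 6 were far below the other saline libraries, and without replicate 5 or replicate 6 the difference was 0.98 or 1.05 and not called.

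Eif3b had 41.0, 84.0, 89.8 and 41.7 FPKM in fixed morphine, against 14.02, 32.5, 20.3 and 23.9 FPKM in fixed saline (1.42 ± 0.41, adjusted p = 0.0307). Eif4enif1 had 9.88, 12.4, 15.5 and 11.1 FPKM in fixed morphine, against 4.39, 4.34, 4.33 and 4.68 FPKM in fixed saline (1.26 ± 0.29, adjusted p = 0.0136). For both genes every morphine library was above every saline library, and the saline libraries of Eif4enif1 lay within 4.33 to 4.68 FPKM. The naive libraries also lay above every saline library for both genes, with values given below, and naive replicate 2 had 47.2 FPKM of Eif3b. The core subunits Eif3a and Eif3c averaged 35.1 ± 10.9 and 63.0 ± 19.4 FPKM in fixed morphine, against 22.2 ± 10.1 and 39.3 ± 14.3 FPKM in fixed saline (SD, n = 4 each), and were not called (adjusted p = 0.110 and 0.0832).

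Eif4ebp2, which binds eIF4E and keeps it from eIF4G, had 6.78, 7.18, 9.12 and 6.73 FPKM in fixed morphine, against 19.9, 16.8, 16.1 and 17.0 FPKM in fixed saline (-1.13 ± 0.28, adjusted p = 0.0179). The gap between the groups was wider than the spread within either. Its paralog Eif4ebp1 had 29.3, 43.8, 48.6 and 47.2 FPKM in fixed morphine, against 47.0, 36.5, 57.4 and 56.4 FPKM in fixed saline, and was not called.

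Eif4a2 had 30.5, 11.97, 12.6 and 29.8 FPKM in fixed morphine, against 48.8, 49.8, 36.7 and 48.1 FPKM in fixed saline (-1.19 ± 0.35, adjusted p = 0.0338). The groups did not overlap, and replicates 2 and 3 of morphine were the lowest, the reverse of their place for Eif4g1. Eif3m, an eIF3 subunit, had 36.6, 34.6, 36.5 and 33.6 FPKM in fixed morphine, against 46.8, 61.9, 63.9 and 58.5 FPKM in fixed saline (-0.69 ± 0.18, adjusted p = 0.0204).

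By role, 3 of 10 members of eIF4F and its helpers were called (2 higher, 1 lower), with a median difference of 0.39. The 14 eIF3 genes had 1 called higher and 1 lower (median 0.19), and the 4 repressors and transporters of eIF4E had 1 of each. None of the 12 genes for start-site choice and the ternary complex, the 5 eIF2B subunits or the 5 joining and late factors was called (medians 0.32, 0.07 and 0.03). At an unadjusted p under 0.05 there were 19 of the 50 members (38%), against 34.7% of all genes. The median over the members was 0.14 and over all genes 0.22.

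The call count moved with the scaling and with single libraries. Dividing each library by its FPKM sum gave 19 higher and 1 lower, with medians of 0.41 over the members and 0.49 over all genes, and median-ratio scaling gave 3 higher and 4 lower, with medians of -0.07 and 0.04. Without saline replicate 5 or 6, or morphine replicate 3, 3 members were called, and without morphine replicate 2 there were 2. Eif4g1 and Eif4enif1 were called whichever single library was left out, and Eif4ebp2 lost its call without morphine replicate 2 (adjusted p = 0.0543). The calls of Eif3b, Eif3m, Eif4a2 and Eif4g2 each ended without saline replicate 5, saline replicate 6, morphine replicate 2 or morphine replicate 3, those of Eif3b and Eif4a2 also without saline replicate 3, and that of Eif4a2 also without saline replicate 4. All 7 kept their direction under every alternative run. After the data were seen, replicates 2 and 3 of morphine were left out together, which left 0 of 50 called, with differences of 0.88 for Eif4g1 and -1.25 for Eif4ebp2. Leaving out replicates 1 and 4 left 14 called. The share of all genes called under these settings is not given here, so the counts are no result about the members.

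Other measures moved with this comparison. Across the members the difference rose with the length of the longest annotated transcript (Spearman 0.48 over the 50 members and 0.46 over the 46 never listed at 0, a description over genes of the same 8 libraries), and over the 11320 genes with a length it was 0.44. A relative floor, the 5th percentile of nonzero FPKM multiplied by transcript length in kilobases, lay between 0.118 and 0.135 in fixed morphine, below the fixed-saline range of 0.350 to 0.539. Of 77 ribosomal protein genes, 5 were called lower and 0 higher, with a median of -0.48, and the mean log2 level of the list lay between 6.83 and 7.16 in fixed morphine, against 6.86 to 8.10 in fixed saline. All 10 neutrophil markers had negative differences (median -1.88, 2 called lower), and their mean log2 level lay between 6.38 and 9.71 in fixed morphine, against 8.04 to 10.4 in fixed saline. For the 3 tested endothelial and mural markers the mean log2 level was 1.02 to 2.15 under fixed morphine and 1.68 to 2.83 under fixed saline. Pecam1 among them was called lower (-0.82 ± 0.24, adjusted p = 0.0324). The part of these measures in the result was not tested.

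**Figure D2:**
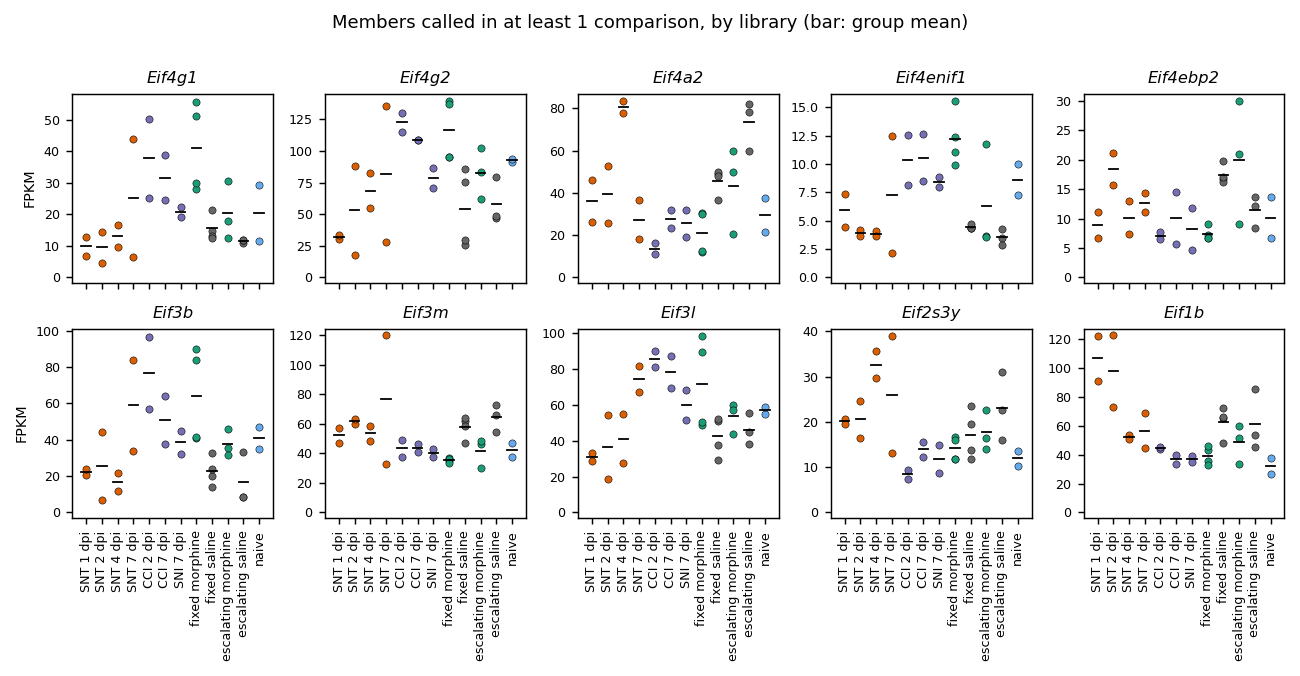
FPKM of the 10 members called in at least 1 comparison (vertical axes from 0), 1 point per library and a bar at each group mean, in the 12 groups. Eif4g1, Eif4enif1 and Eif3b have all 4 fixed-morphine points above the 4 fixed-saline points, and Eif4ebp2 and Eif4a2 have them below.

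**Figure D3:**
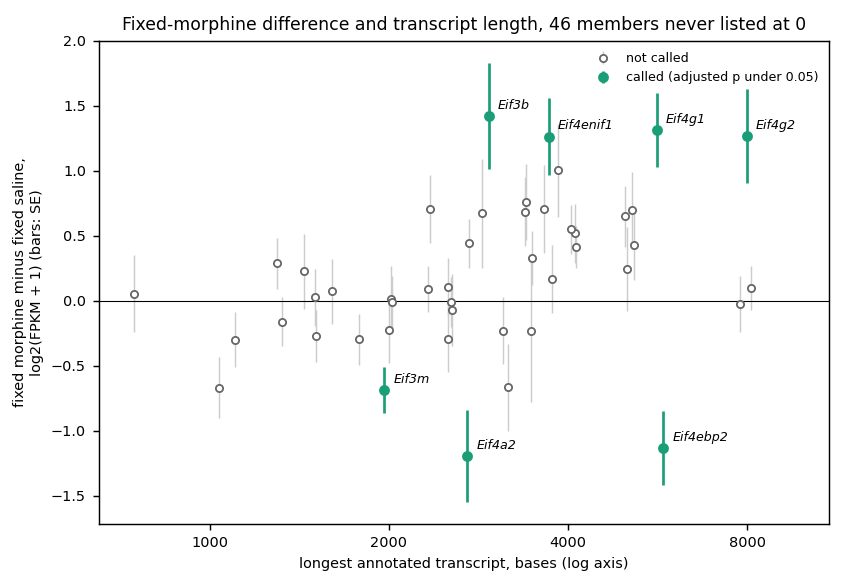
Difference of fixed morphine minus fixed saline in log2(FPKM + 1) with its SE (vertical axis) against the longest annotated transcript in bases (log axis) for the 46 tested members never listed at 0, called members filled and named. Eif4g1 and Eif4g2 are long and higher, Eif3m is short and lower, and Eif4ebp2 is long and lower.

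Under escalating morphine, no member was called against escalating saline (limma, 0 of 50; 7 at an unadjusted p under 0.05, which is 14%, against 19.2% of all genes), and 0.0340% of all genes were called. Eif4g1 had 30.6, 17.7 and 12.5 FPKM in escalating morphine, against 11.0, 11.7 and 11.7 FPKM in escalating saline (0.68 ± 0.33, adjusted p = 0.284). Eif2s1, the phosphorylated subunit of eIF2, had 13.7, 13.1 and 7.58 FPKM in escalating morphine, against 18.7, 18.3 and 29.4 FPKM in escalating saline (-0.90 ± 0.34, adjusted p = 0.183). The groups did not overlap for either gene, and escalating-morphine replicate 1 was the highest of its group for Eif4g1 and closest to a fixed-morphine library over all genes (r = 0.981).

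Eif3m was again lower in every morphine library, with 29.9, 46.2 and 48.2 FPKM in escalating morphine, against 66.2, 54.8 and 72.6 FPKM in escalating saline (-0.65 ± 0.20, adjusted p = 0.132). Eif4a2 had 20.3, 59.6 and 49.9 FPKM in escalating morphine, against 82.1, 59.9 and 78.4 FPKM in escalating saline (-0.87 ± 0.41, adjusted p = 0.261). Eif4g3 had 17.03, 13.8 and 12.5 FPKM in escalating morphine, against 8.41, 9.31 and 11.1 FPKM in escalating saline (0.54 ± 0.19, adjusted p = 0.173). Eif5b also averaged higher without overlap (0.59 ± 0.25, adjusted p = 0.229). Members of this comparison were named for lack of overlap, and the share of all genes without it is not given.

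Whether the morphine effect differed between the regimens was tested as a difference of differences, in which 0 members were called (limma; 5 at an unadjusted p under 0.05, which is 10%, against 11.7% of all genes) and 0.00850% of all genes. Eif4ebp2 had the lowest p among the members. It had 9.15, 20.9 and 30.01 FPKM in escalating morphine, against 8.39, 12.2 and 13.6 FPKM in escalating saline, and its fixed-regimen difference minus its escalating-regimen difference was -1.77 ± 0.43 (adjusted p = 0.221). Next were Eif3e, an eIF3 subunit (1.00 ± 0.25, adjusted p = 0.221), and Eif2s1 (1.66 ± 0.45, adjusted p = 0.229). A difference between the regimens is thus not shown for any of them.

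Against the 9 controls, the constriction and spared injuries were pooled (6 libraries, as the mean of 3 group means), and 1 of 50 members was called, with 1.83% of all genes. It was Eif4a2, which fell. Eif4a2 had 16.4 and 10.9 FPKM at CCI 2 dpi, 23.4 and 31.8 FPKM at CCI 7 dpi and 32.1 and 19.2 FPKM at SNI 7 dpi, against a lowest of 21.6, a median of 48.8 and a highest of 82.1 FPKM in the controls. The difference was -1.16 ± 0.27 (SE) (adjusted p = 0.0434), and the groups overlapped through 1 naive library, at 21.6 FPKM, while the other 8 controls lay above all 6 injured libraries. With naive mice alone as controls the difference was -0.43 and not called. Leaving out any of the 7 saline libraries, or any injured library other than CCI 7 dpi replicate 2, also ended the call of Eif4a2, and without naive replicate 2 there were 3 members called.

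Eif3b and Eif4enif1, which rose under fixed morphine, were not called in this comparison. Eif3b averaged 55.3 ± 23.4 FPKM (SD, n = 6) in the constriction and spared injuries and 24.8 ± 13.2 FPKM (n = 9) in the controls (1.24 ± 0.39, adjusted p = 0.0850). Eif4enif1 averaged 9.76 ± 2.205 FPKM in the constriction and spared injuries and 5.07 ± 2.21 FPKM in the controls (0.87 ± 0.29, adjusted p = 0.0993). Eif4enif1 had 7.23 and 10.01 FPKM in the naive libraries, within the range of the injured ones (7.95 to 12.6 FPKM) or just under it. The member median was 0.18 and that of all genes 0.11.

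Single injuries gave no called member against the controls (limma). All genes were called at 0.0170% at SNT 1 dpi, 0% at SNT 2 dpi, 0% at SNT 4 dpi, 0.204% at SNT 7 dpi, 0.00850% at CCI 2 dpi, 0% at CCI 7 dpi and 0% at SNI 7 dpi, and at 0% in the 4 days of transection pooled. Members at an unadjusted p under 0.05 numbered 12, 2, 1 and 5 over the days of transection, 11 and 3 over those of constriction, 1 after spared injury and 1 in the pooled transection, each of 50. The shares of all genes at that threshold were 16.1, 7.33, 2.34 and 8.88% over the days of transection, 10.7 and 9.75% over those of constriction, 4.06% after spared injury and 7.13% in the pooled transection. Each of these contrasts uses the same 9 controls, so they share them. Members named below were picked for lying outside the range of the controls. The share of all genes that did so is not given, so that trait is a description only.

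At SNT 1 dpi, Eif4e had 6.63 and 13.5 FPKM, against 14.8 to 28.4 FPKM in the controls (-0.97 ± 0.29, adjusted p = 0.147). Eif1b, a close homolog of Eif1, had 122 and 91.1 FPKM, against 26.7 to 85.2 FPKM in the controls (0.99 ± 0.34, adjusted p = 0.178). Both lay outside the range of all 9 controls, as did Eif5b, with 13.35 and 9.74 FPKM, against 3.69 to 9.28 FPKM in the controls (0.87 ± 0.35, adjusted p = 0.244). Replicate 1 of this group had the fewest genes of all libraries, 8005.

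At SNT 7 dpi the members leaned upward, 40 of 50 with positive differences, against 52.5% of all genes. The member median was 0.26, against 0.03 over all genes. Eif4e had 37.6 and 30.5 FPKM, against 14.8 to 28.4 FPKM in the controls (0.76 ± 0.29, adjusted p = 0.4928), and Eif3l had 66.8 and 81.8 FPKM, against 29.4 to 59.0 FPKM in the controls (0.68 ± 0.34, adjusted p = 0.579). The replicates were far apart for other members: Eif4g1 had 6.34 and 43.9 FPKM and Eif3f 247 and 66.7 FPKM. Without replicate 1 the median was 0.44, and without replicate 2 it was 0.13.

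At CCI 2 dpi 40 of 50 members were positive as well, where 63.1% of all genes were. The member median was 0.37 and that of all genes 0.17. Eif3b had 96.6 and 56.6 FPKM, against 8.26 to 47.2 FPKM in the controls (1.74 ± 0.58, adjusted p = 0.393). Eif3l had 89.9 and 80.8 FPKM, against 29.4 to 59.0 FPKM in the controls (0.88 ± 0.34, adjusted p = 0.413). Eif4g2 (1.06 ± 0.54, adjusted p = 0.486) was above all 9 controls and Eif2s3y (-0.94 ± 0.39, adjusted p = 0.423) below them. Eif4a2, given above, was also below all 9 controls here (-1.77 ± 0.41, adjusted p = 0.385).

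At CCI 7 dpi, Eif4g2 had 109 and 109 FPKM, against 25.3 to 93.7 FPKM in the controls (0.89 ± 0.54, adjusted p = 0.624), and Eif4e2 had 26.8 and 25.3 FPKM, against 13.6 to 23.3 FPKM in the controls (0.55 ± 0.27, adjusted p = 0.528). Eif3l, at 86.9 and 69.1 FPKM, was also above all 9 controls (0.74 ± 0.34, adjusted p = 0.464). At SNI 7 dpi Eif1 had 177 and 177 FPKM, against 184 to 304 FPKM in the controls (-0.34 ± 0.26, adjusted p = 0.999). The levels of both spared-injury libraries were nearly equal and only just under the lowest control.

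The kind of injury was compared directly, the constriction and spared injuries (6 libraries) against transection (8 libraries), without controls in the contrast. Eif4g1, Eif3l and Eif4enif1 were higher and Eif2s3y, Eif1b and Eif4a2 lower. These 6 are 12% of the members tested, and 14.5% of all genes were called (11.0% higher and 3.49% lower). The member median was 0.10 and the median of all genes 0.24. The member median was -0.14 with median-ratio scaling (all genes 0.07) and 0.44 when each library was divided by its FPKM sum (all genes 0.50).

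Eif2s3y, the Y-linked gene for the eIF2 gamma subunit, had a lowest of 7.45, a median of 10.8 and a highest of 15.6 FPKM in the constriction and spared injuries, against 13.1, 22.7 and 39.0 FPKM in transection (-1.03 ± 0.27, adjusted p = 0.0199). Its X-linked paralog Eif2s3x had 17.1 to 23.1 FPKM in the constriction and spared injuries, against 4.45 to 22.9 FPKM in transection, and was not called. The ratio of Eif2s3y to Eif2s3x was 0.323 to 0.869 in the constriction and spared injuries, 0.570 to 8.77 in transection and 0.591 to 2.82 in the controls. Eif2s3y was at 7.45 FPKM or more in all 30 libraries, and Xist, which female cells express from the inactive X chromosome, at 0.0475 FPKM or less.

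Eif1b had 33.8 to 45.2 FPKM (median 39.6) in the constriction and spared injuries, against 44.4 to 123 FPKM (median 70.6) in transection (-0.88 ± 0.23, adjusted p = 0.0206). Only SNT 7 dpi replicate 2, at 44.4 FPKM, reached into the lower range. Eif4g1 had 19.0 to 50.2 FPKM (median 24.9), against 4.57 to 43.9 FPKM (median 11.2) in transection (1.24 ± 0.35, adjusted p = 0.0269), and again SNT 7 dpi replicate 2 was the 1 transected library within the other group's range.

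Eif3l, an eIF3 subunit, had 51.2 to 89.9 FPKM (median 74.9) in the constriction and spared injuries, against 18.7 to 81.8 FPKM (median 43.5) in transection (0.82 ± 0.23, adjusted p = 0.0275). Eif4a2 had 10.9 to 32.1 FPKM (median 21.3), against 18.2 to 83.4 FPKM (median 41.4) in transection (-0.92 ± 0.28, adjusted p = 0.0350). Eif4enif1 had 7.95 to 12.6 FPKM (median 8.65), against 2.13 to 12.4 FPKM (median 4.12) in transection (0.90 ± 0.30, adjusted p = 0.0486).

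The 6 called members overlapped between the groups in every case, and the count of 6 depended on single libraries and on scaling. It was 0 without SNT 7 dpi replicate 1, CCI 7 dpi replicate 1 or SNI 7 dpi replicate 2, 1 without CCI 2 dpi replicate 1, 2 without SNT 2 dpi replicate 2 or CCI 2 dpi replicate 2, 3 without SNT 4 dpi replicate 1, SNT 4 dpi replicate 2 or SNI 7 dpi replicate 1, 14 without SNT 7 dpi replicate 2 and 15 without SNT 2 dpi replicate 1. Without the 3 libraries with the fewest genes, all of them from transection, 1 member was called. Dividing by the FPKM sum gave 9 higher and 1 lower, and median-ratio scaling 1 higher and 4 lower, while the 6 kept their direction. These counts too stand without the share of all genes called under each setting and are a description. Of 77 ribosomal protein genes, 21 were called lower and 0 higher (median -0.75), with mean log2 levels of 6.89 to 7.58 in the constriction and spared injuries and 6.79 to 8.97 in transection. The relative floor was 0.0933 to 0.214 in the constriction and spared injuries and 0.149 to 0.599 in transection, and their part in the result was not tested.

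**Figure D4:**
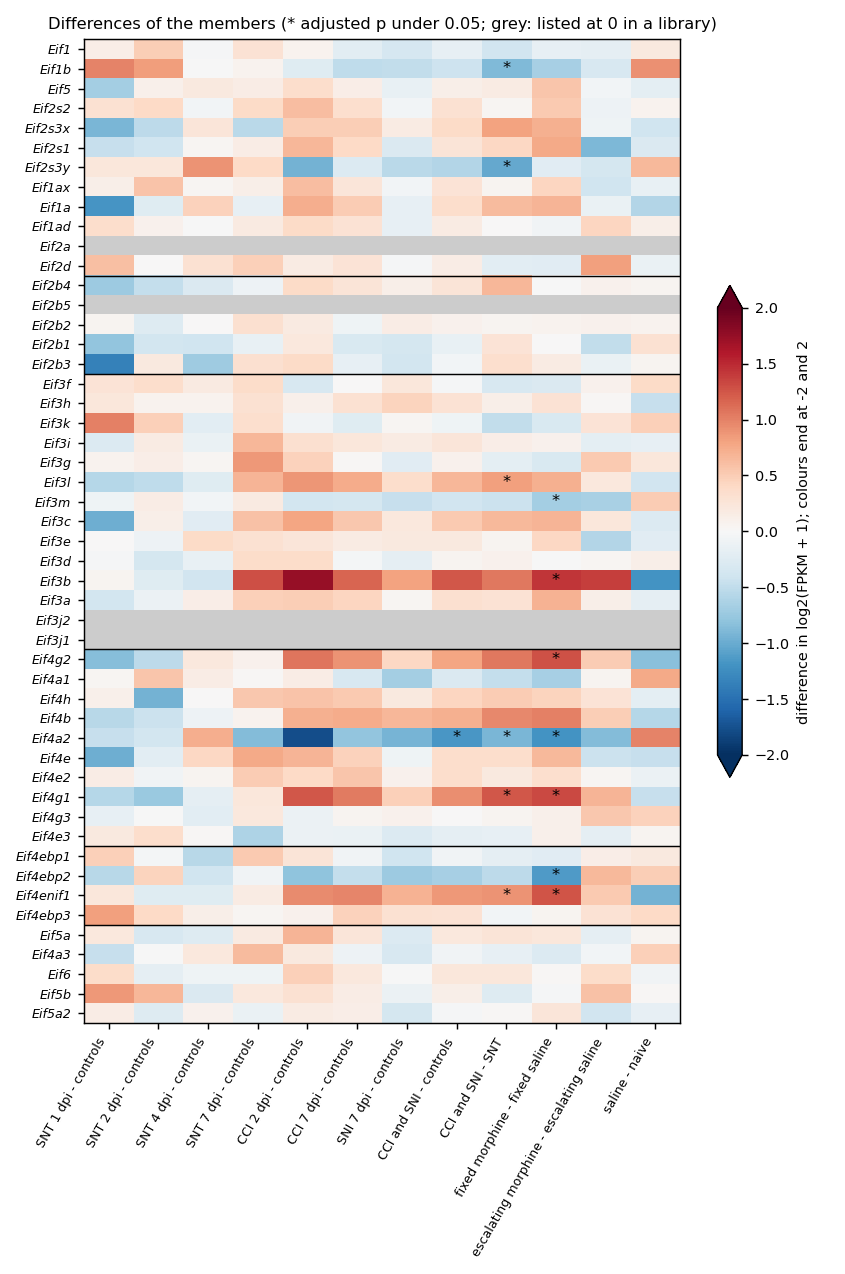
Differences in log2(FPKM + 1) of the tested members (rows, by role) in 12 comparisons (columns), from blue (lower in the group named before the minus sign) to red (higher), with an asterisk at an adjusted p under 0.05 and grey rows for 4 members listed at 0 in at least 1 library. Asterisks stand in the columns of fixed morphine (7), constriction and spared injuries against transection (6) and against controls (1).

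Saline was compared with naive to see whether the members differed between the kinds of control. None was called (limma, 0 of 50; 5 at an unadjusted p under 0.05, which is 10%, against 12.8% of all genes), with 0.604% of all genes called. Eif1b had 45.1 to 85.2 FPKM (median 65.1) in the 7 saline libraries, against 26.7 and 37.9 FPKM in naive (0.91 ± 0.28, adjusted p = 0.119). Eif3b had 8.26 to 33.2 FPKM in saline, against 34.7 and 47.2 FPKM in naive (-1.19 ± 0.52, adjusted p = 0.320). Eif4enif1 had 2.82 to 4.68 FPKM in saline, against 7.23 and 10.01 FPKM in naive (-0.94 ± 0.41, adjusted p = 0.304).

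For these 3 genes the saline and naive libraries did not overlap, nor did they for the helicase Eif4a1 (0.77 ± 0.36, adjusted p = 0.369) and Eif3k (0.48 ± 0.32, adjusted p = 0.583), which averaged higher in saline, or for Eif4g2 (-0.83 ± 0.50, adjusted p = 0.523), which averaged lower. The genes were named because they did not overlap, and the share of all genes without overlap is not given, so this is a description only. Both naive libraries of Eif3b lay within the range of the constriction and spared injuries (32.2 to 96.6 FPKM), and 1 of 2 did for Eif4enif1. The mean log2 level of the neutrophil markers lay between 7.97 and 10.4 in saline, against 7.80 and 7.82 in naive, and that of the 3 tested endothelial and mural markers between 1.68 and 3.00 in saline, against 1.33 and 1.54 in naive. The relative floor was 0.256 to 0.617 in saline, against 0.0977 and 0.269 in naive. Their part in the differences between saline and naive was not tested.

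For 4 of the 50 members, Eif5a included, the 6 highest libraries were the same. The 6 highest for Eif5a were fixed-morphine replicates 3 and 2 (368 and 297 FPKM), CCI 7 dpi replicate 1 (315 FPKM), CCI 2 dpi replicates 1 and 2 (290 and 285 FPKM) and SNT 7 dpi replicate 2 (271 FPKM). They were also the 6 highest for Eif3b, Eif3c and Eif3l, and not for Eif4g1, Eif4h or Eif2s1. They come from 4 groups, and other replicates of 3 of those groups were lower, with CCI 7 dpi replicate 2 at 141 FPKM and fixed-morphine replicate 1 at 134 FPKM. How many of all genes had the same 6 highest libraries is not given, so the count of 4 is a description only.

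The eIF3j subunit is encoded in the mouse by a pair of near-identical genes. Eif3j2 was listed at 0 in 2 libraries, SNT 1 dpi replicate 2 and fixed-morphine replicate 1, and at 9.06 to 35.8 FPKM in the other 28. Eif3j1 was at 16.4 and 16.7 FPKM in exactly those 2 and listed at 0 in the other 28. Their sum was 9.06 to 35.8 FPKM over all 30. The split between them is therefore uncertain, and no difference of either is named, although both are among the 50 tested members of the counts and medians. The fixed-morphine median of the eIF3 genes was 0.19 with and without the pair.

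Eif2a, a factor that can bring initiator tRNA without eIF2, was listed at 0 in 14 libraries and at 5.47 to 20.7 FPKM in the other 16. It was above 0 in 5 of the 6 constriction and spared-injury libraries, 4 of the 8 transection libraries, 2 of 4 fixed-morphine and 2 of 3 escalating-morphine libraries, and in 3 of the 9 controls, none of them naive. Because a listed 0 may be a failed estimate, no fold is given.

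**Figure D5:**
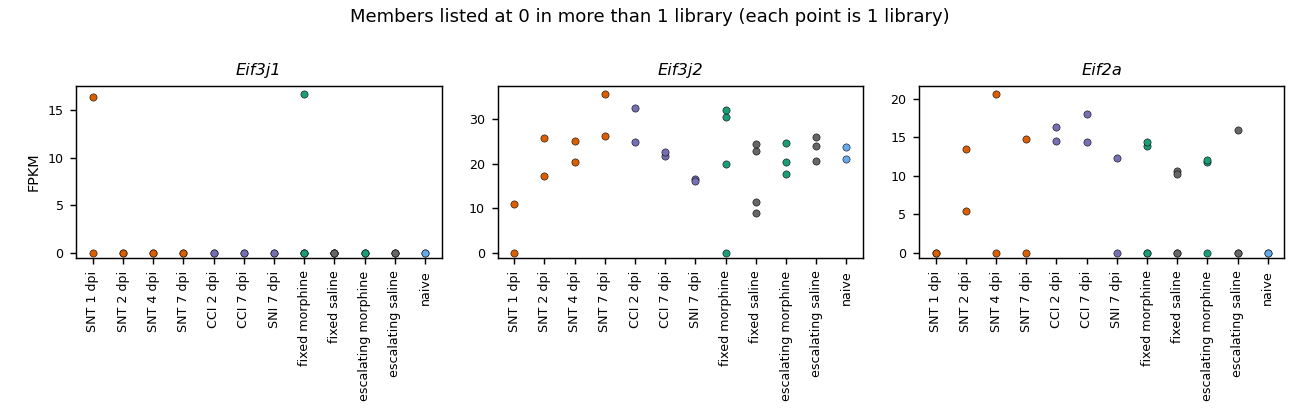
FPKM of Eif3j1, Eif3j2 and Eif2a (vertical axes from 0), 1 point per library in the 12 groups. Eif3j1 is above 0 in the 2 libraries in which Eif3j2 is at 0, and Eif2a is at 0 in 14 libraries.

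The genes around the initiation factors were read from lists of the pathway. In the list of eIF2 kinases and the integrated stress response, 2 of 17 genes were higher and 2 lower under fixed morphine, with Ddit3 set apart because of its zeros. Atf4, the stress transcription factor favoured when eIF2 is phosphorylated, had 29.1, 27.8, 29.9 and 28.9 FPKM in fixed morphine, against 66.6, 62.8, 67.6 and 77.2 FPKM in fixed saline (-1.21 ± 0.23, adjusted p = 0.00728). Ddit3, a pro-apoptotic target of ATF4, was listed at 0 in 3 fixed-morphine libraries and at 10.9 FPKM in replicate 4, against 19.2 to 44.6 FPKM in fixed saline. Above 0 it was never under 10.9 FPKM, and its zeros may be failed estimates, so no direction is read from it. Eif2ak2, the kinase that senses double-stranded RNA, averaged 8.19 ± 0.856 FPKM in fixed morphine and 2.78 ± 1.01 FPKM in fixed saline (SD, n = 4 each) (1.32 ± 0.27, adjusted p = 0.00862).

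In escalating morphine Atf4 had 28.9, 57.2 and 61.2 FPKM, against 56.1, 61.9 and 101 FPKM in escalating saline (-0.59 ± 0.27, adjusted p = 0.255), and the low value was that of replicate 1. Ddit3 was listed at 0 in that library and at 18.2 and 13.3 FPKM in the other escalating-morphine libraries, against 11.8 to 29.5 FPKM in escalating saline.

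Atf4 differed between the kinds of control as well. It had 56.1 to 101 FPKM in the 7 saline libraries, against 18.0 and 32.1 FPKM in naive (1.49 ± 0.29, adjusted p = 0.0215), beside the neutrophil, endothelial and floor values given for these groups above. It had 19.7 to 41.9 FPKM in the constriction and spared injuries, against 36.4 to 68.4 FPKM in transection (-0.92 ± 0.29, adjusted p = 0.0388). Ddit3 was listed at 0 in both naive and all 6 constriction and spared-injury libraries. Against all 9 controls, the constriction and spared injuries had no called gene of the list besides Ddit3, and 1 mTOR and MNK gene was higher, Larp1. Larp1 had 13.7 to 31.8 FPKM in these injuries, against 0.614 to 2.22 FPKM in the 7 saline libraries. The naive libraries had 10.05 and 16.7 FPKM of it, and naive replicate 2 lay within the injured range. In the contrast of injuries, 5 of the 17 genes of the stress-response list were higher, and Atf4 was the 1 called lower besides Ddit3.

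Of the genes of mTOR and MNK control of eIF4F, 4 of 19 were higher and 2 lower under fixed morphine. Larp1, which binds mRNAs with a terminal oligopyrimidine tract when mTOR is inactive, had 18.7, 26.4, 29.1 and 20.6 FPKM in fixed morphine, against 2.22, 1.67, 1.57 and 1.11 FPKM in fixed saline (3.22 ± 0.49, adjusted p = 0.00511). The groups were far apart, and naive libraries had 10.05 and 16.7 FPKM of Larp1. In escalating morphine Larp1 was at 21.1 FPKM in replicate 1 and at 1.65 and 3.04 FPKM in the others, against 0.614 to 1.41 FPKM in escalating saline. Pabpc1, the poly(A)-binding protein that eIF4G holds, averaged 168 ± 27.9 FPKM in fixed morphine and 75.9 ± 36.6 FPKM in fixed saline (1.26 ± 0.30, adjusted p = 0.0147), and Pdcd4, an inhibitor of eIF4A, averaged 6.31 ± 1.56 FPKM in fixed morphine and 11.98 ± 1.15 FPKM in fixed saline (-0.85 ± 0.19, adjusted p = 0.0119).

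Of elongation and release factors, 3 of 11 were higher and none lower, among them Eef2, the translocase, with 448, 439, 438 and 451 FPKM in fixed morphine, against 336, 336, 105 and 122 FPKM in fixed saline (1.18 ± 0.34, adjusted p = 0.0296). Saline replicates 5 and 6 were far below the other pair, as for Eif4g2. Among helpers of scanning and reinitiation, Dhx29 and Abcf1 were higher. In the contrast of the injuries, 3 of 19 mTOR and MNK genes were higher and 4 lower, and 2 of 11 elongation and release factors higher, with 14.5% of all genes called. The shares of these lists are set beside the 18.0% and 14.5% of all genes as a description only.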

How the data were processed

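CD11b-selected cells of the caudal lumbar cord were sequenced with Smart-Seq2 and Nextera XT, per the labels' protocols. The authors deposited 1 table of FPKM values for the 30 libraries, on a linear scale and without counts. The submitters' processing notes name the build mm10, the aligner HISAT2 (2.0.5.1), the counter featureCounts (1.4.6), Cufflinks (2.2.1) and DESeq2, and which tool made the FPKM and from which annotation is not given in the sources used here. FPKM depends on the transcript model and on the make-up of each library. Depth is unknown, so no count test or counting interval was used.

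From the table, 826 rows whose symbol stands on more than 1 row were left out, and genes with at least 1 FPKM in at least 2 of 30 libraries were kept (11759). Values were taken as log2(FPKM + 1), which understates the change of low genes, and fitted with limma 3.58.1 (R 4.3.3, mean-variance trend), with Benjamini-Hochberg adjustment over all genes tested and a threshold of 0.05. The injury fit held 14 injured and 9 control libraries, the morphine fit 14 libraries and the comparison of saline with naive all 30. The fit was tested on simulated data. Errors are SDs for means and SEs for differences.

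The members and lists were chosen with earlier results of these data known. Named genes were those called in a comparison, otherwise up to 3 members a direction with the largest differences among those without overlap and with a mean of at least 5 FPKM, 14 core members, and the 5 highest and 5 lowest by level. Of the other lists, up to 4 called genes a comparison were named, with Atf4, Ddit3 and Xist. Other members given with values were chosen after their values were seen. Gene positions came from GENCODE M21 and promoters from RefSeq (GRCm38.p6). Alternatives were the pseudocount, the filter, scaling, the replicate number as a block, the controls used and left-out libraries. Summaries used pandas 2.3.3, and figures matplotlib 3.10.9. Results on some genes are not reported here.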

Additional observations from a re-analysis of the deposited data

Results flagged for a closer look

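In groups of 4 to 10 libraries, 85 sets of 1 member in 1 group were read for a library far from the others, and 8 were found, where chance gives about 1 in 20. The flags are not all separate: that of Eif5a in fixed-saline replicate 6 counts in its group and again among the controls. The flag of Eif3j1 rests on its uncertain split from Eif3j2. In fixed saline, replicate 6 had 265 FPKM of Eif5a, against 164 to 171 FPKM in the other fixed-saline libraries and 149 to 205 FPKM in the other controls. The same library had 59.0 FPKM of Eif6, a factor that keeps the ribosomal subunits apart, against 22.3 to 39.7 FPKM in the other controls. Fixed-saline replicate 5 had 36.7 FPKM of Eif4a2, against 48.1 to 49.8 FPKM in the others of its group, and 3.48 FPKM of Eif4ebp3, against 0.596 to 1.69 FPKM in the other controls. Escalating-saline replicate 9 had 170 FPKM of Eif3f, against 66.6 to 118 FPKM in the other controls. Fixed-morphine replicate 3 had 3.41 FPKM of Eif4ebp3, against 1.20 to 1.501 FPKM in its group, and fixed-morphine replicate 1 had 16.7 FPKM of Eif3j1, which was listed at 0 in the other 3.

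The direct test of constriction and spared injuries against transection called 6 of the 50 members, with 14.5% of all genes called. That count moved with single libraries and with scaling, as given above. The differences in log2(FPKM + 1) were 1.24 for Eif4g1, 0.90 for Eif4enif1, 0.82 for Eif3l, -0.88 for Eif1b, -0.92 for Eif4a2 and -1.03 for Eif2s3y. The days of the injuries were not matched: transection was sampled at 1, 2, 4 and 7 dpi, constriction at 2 and 7 dpi and spared injury at 7 dpi.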

How the results depend on the processing

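No named member that was called changed direction under any alternative. Members called in the constriction and spared injuries against controls were 1, and 0 with a pseudocount of 0.1, without a filter, with median-ratio scaling, with FPKM divided by its sum, with the replicate block or with naive controls alone. They were 5 with saline controls alone, 6 without the 3 libraries with the fewest genes and 0 to 3 with 1 library left out. Against transection they were 6, and 3 without a filter, 10 with sum scaling, 2 with the replicate block, 1 without the 3 libraries and 0 to 15 with 1 library left out. Under fixed morphine they were 7, and 4 without a filter, 20 with sum scaling, 0 with the replicate block, 2 to 9 with 1 library left out, 0 without morphine replicates 2 and 3 and 14 (median 0.38) without replicates 1 and 4, the last pair of settings added after seeing the data. Where 0 was called, SNT 1 dpi had 2 without the 3 libraries and 1 with naive controls alone (0 to 6 with 1 library left out), pooled transection and saline against naive 1 each without the 3 libraries (transection 0 to 1 with 1 library left out), and CCI 2 dpi 1 with saline controls alone. With 1 library left out, SNT 2 dpi had 0 to 4, SNT 7 dpi 0 to 3 and the difference of regimens 0 to 2. A lone library left in a group is assumed to vary like the other groups. With the replicate block, fixed saline rested on replicates 3 and 4, whose numbers fixed morphine shares. The controls of the injuries rested on naive replicates 1 and 2. Counts under these settings are given without the share of all genes called, so they are no result about the members.

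Member medians moved with scaling. Median-ratio scaling gave 0.23 at SNT 1 dpi, 0.29 at SNT 2 dpi, 0.16 at CCI 2 dpi, 0.0079 at CCI 7 dpi, 0.037 for the constriction and spared injuries against controls, -0.14 against transection and -0.12 under escalating morphine. Sum scaling gave -0.27 at SNT 1 dpi, -0.20 at SNT 2 dpi, 0.57 at CCI 2 dpi, 0.44 at CCI 7 dpi, 0.15 at SNI 7 dpi, 0.41 against controls, 0.44 against transection, 0.41 under fixed morphine, 0.47 for the difference of regimens and -0.29 for saline against naive. Without the 3 libraries the median was 0.19 at SNT 2 dpi and 0.44 at SNT 7 dpi. With 1 library left out it ran over -0.30 to 0.19 at SNT 2 dpi, 0.13 to 0.44 at SNT 7 dpi, 0.22 to 0.51 at CCI 2 dpi and -0.11 to 0.11 for saline against naive. The replicate block gave -0.30 under escalating morphine. Escalating saline shares no replicate number with another group of that fit, so its replicate 9 alone was the reference. That value therefore cannot tell whether the median depends on a block. Of 94 same-numbered pairs of libraries, 16 had a correlation over 0.1, and the 2 pairs of fixed morphine with fixed saline had -0.274 and -0.0493. Between groups of 2 libraries both numbers give the same value by construction, and differently numbered pairs were not read. Controls are numbered straight through, so the numbers cannot show whether saline and morphine libraries were paired. Beyond the changes that the settings make by construction, the cause was not tested.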
